A study of Mus musculus with 4 samples.

Results

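Avp, Oxt, Trh, Gal, Crh, Pmch and Hcrt are 7 genes for neuropeptides of the hypothalamus. They were taken by symbol from the deposited spatial count matrix of mouse brain, where they are 7 of 19465 genes. The matrix came from coronal sections of 4 brains, cut where the striatum is seen: 2 wild-type mice and 2 mice heterozygous for Celsr3, whose product is a large cadherin-type surface receptor of neurons. The study asked how Celsr3 deficiency bears on tic-related behaviour and on dopamine in the striatum. The mice were untreated, and their age, and the way the Celsr3 allele was altered, are not given in the labels. The sections were formalin-fixed and paraffin-embedded, and Visium CytAssist read gene probes on a grid of barcoded spots, each a small region that can hold several cells.

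The ending of each spot name splits the spots into 4 barcode sets, numbered 1 to 4 here. No ending matches a sample label, so no set was tied to a mouse or to a genotype, and wild-type and heterozygous mice were not compared. All values are given per set, with no replicate error. All intervals are at 95% and reflect counting alone: where values lie apart by more, the libraries differ, which says nothing on genotype.

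Neuropeptides are cut from larger precursors in neurons and released from dense-core vesicles. Magnocellular neurons of the paraventricular and supraoptic nuclei make vasopressin (Avp) or oxytocin (Oxt) and send them to the posterior pituitary. Parvocellular neurons of the paraventricular nucleus make thyrotropin-releasing hormone (Trh) and corticotropin-releasing hormone (Crh), which act on the anterior pituitary. Galanin (Gal) is made by many hypothalamic neurons, whereas melanin-concentrating hormone (Pmch) and the orexins (Hcrt) mark separate neurons of the lateral hypothalamus.

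Avp and Oxt are neighbours in RefSeq's order of coding genes on mouse chromosome 2, on opposite strands. Their promoter sequences are shown because these genes held most counts of the 7 and often lay in the same spots, yet their proportion differed between sets. The sequences are RefSeq's for build GRCm38.p6, from 250 bases before to 50 bases after the start of the gene, at chr2:130582539-130582838 on the minus strand for Avp and chr2:130575919-130576218 on the plus strand for Oxt. Capitals mark matches, on either strand, to the motif TGACC, to the motif ACGTG, and to the hexamers TATAAA and also CATAAA.
Avp: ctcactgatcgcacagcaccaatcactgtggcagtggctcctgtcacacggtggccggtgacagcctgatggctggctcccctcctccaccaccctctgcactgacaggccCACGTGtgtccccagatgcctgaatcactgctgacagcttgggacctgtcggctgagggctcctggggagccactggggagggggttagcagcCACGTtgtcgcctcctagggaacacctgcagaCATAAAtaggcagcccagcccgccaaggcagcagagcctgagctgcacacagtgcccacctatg
Oxt: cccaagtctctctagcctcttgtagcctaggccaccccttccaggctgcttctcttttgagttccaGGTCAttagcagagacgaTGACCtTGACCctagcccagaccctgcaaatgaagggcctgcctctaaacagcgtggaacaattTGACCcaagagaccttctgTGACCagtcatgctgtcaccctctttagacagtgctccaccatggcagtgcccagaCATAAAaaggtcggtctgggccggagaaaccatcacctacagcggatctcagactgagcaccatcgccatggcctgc
The Oxt window held 5 matches to TGACC, a nuclear receptor half-site, and the Avp window held 0. The Avp window held 3 matches to ACGTG, of which 2 are both strands of the palindrome CACGTG, known as the E-box, and the Oxt window held 0. Each held 1 CATAAA, a hexamer like the TATA box, beginning 14 bases before the start in Avp and 27 bases before it in Oxt. Of 32851 promoter windows of the same length, 40.5% held TGACC, 10.8% held it at least 2 times, 19.6% held ACGTG and 11.9% held CATAAA. Of the other genes, Trh and Gal held 1 match to TGACC each, Gal and Pmch 1 to CATAAA each, and Pmch and Hcrt 1 to TATAAA each. TATAAA was in 13.6% of all windows. Windows were matched for 6 of the 7 genes; Crh had no entry. These matches describe the letters of a window and say nothing on binding.

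Sets 1 to 4 held 3055, 2808, 3445 and 3294 spots with a total of 174761560, 109663162, 165185177 and 90752475 counts. The median count per spot ranged from 26444 in set 4 to 52481 in set 1. The sets used 4744 different barcodes, of which 1613 occurred in all 4. After 1 spot of set 3 with under 500 counts was left out, 12601 spots remained.

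Hypothalamic areas were defined without the 7 genes, by Irs4, Arhgap36 and Dlk1, which are enriched in the hypothalamus. Spots were clustered without the 7 genes and their partner lists into 27 clusters, and a cluster counted as an area where at least 2 of the 3 markers were at least 4 times as high as outside it. Clusters 2 and 24 passed. They made up 1011 of the 12601 spots: 224, 213, 288 and 286 spots of sets 1 to 4. As shares these were 7.33% (6.43 to 8.31, Clopper-Pearson), 7.59% (6.63 to 8.63), 8.36% (7.46 to 9.34) and 8.68% (7.74 to 9.70) of each set. All 167 spots of cluster 24 came from set 2, where cluster 2 gave 46 spots; in the other sets cluster 2 made up the areas alone. The areas of set 2 are thus mostly a cluster of their own, which cannot be told apart from that library. The levels of the 3 markers chose the areas: in counts per 1000000 counts (CPM), Irs4 was at 69.8 to 193 CPM inside and 3.89 to 5.79 outside, Arhgap36 at 156 to 283 and 9.78 to 17.6, and Dlk1 at 166 to 461 and 18.1 to 44.5.

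Transcription factors of the hypothalamus, which took no part in the rule, were set against these areas. Levels inside and outside were called different where the ratio was at least 2 or at most 0.5 and its exact conditional binomial interval left out 1. Otp, a factor needed for paraventricular and supraoptic neurons, was higher inside the areas of sets 1 to 4 by 31.0 (28.5 to 33.9), 11.3 (8.07 to 15.6), 45.0 (39.6 to 51.2) and 31.8 times (28.4 to 35.6). Sim1, needed for the same neurons, was higher by 8.81, 6.48, 30.1 and 18.9 times. Of the 20 factors of the list, 10, 10, 10 and 9 were higher in sets 1 to 4, and 1, 0, 1 and 2 lower, with median ratios of 2.34, 2.09, 2.25 and 1.67. Foxb1, of the mammillary region, was higher in every set, by 2.07 to 5.88 times, Six3 was at 1.35 to 1.60 times and Lhx6 at 1.21 to 3.76 times, higher in set 3. Of all genes with at least 1 CPM, 4.51%, 6.41%, 5.52% and 4.73% were higher inside the areas of sets 1 to 4, and 9.23%, 7.66%, 8.83% and 7.21% lower. Set 2 differed from the others in level, in both directions. Its areas had Otp at 8.97 CPM, against 89.3 to 153 CPM in the other sets. Sim1 was at 2.62 CPM there, against 18.2 to 36.2 CPM. Some other factors of the list were higher in the areas of set 2. Hmx3 was at 47.9 CPM, against at most 7.73 CPM in those of the other sets. Hmx2 was at 18.9 CPM, against at most 4.71 CPM, and Lhx8 at 58.4 CPM, against at most 6.35 CPM. Nr5a1, a marker of the ventromedial nucleus, was higher inside in set 1 alone, at 44.1 times (32.0 to 61.7, 185 counts inside), with 1 to 6 counts inside in the other sets. The plane of each section is not given in the labels, so what a set's level owes to the plane of the cut cannot be told apart.

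**Figure D1:**
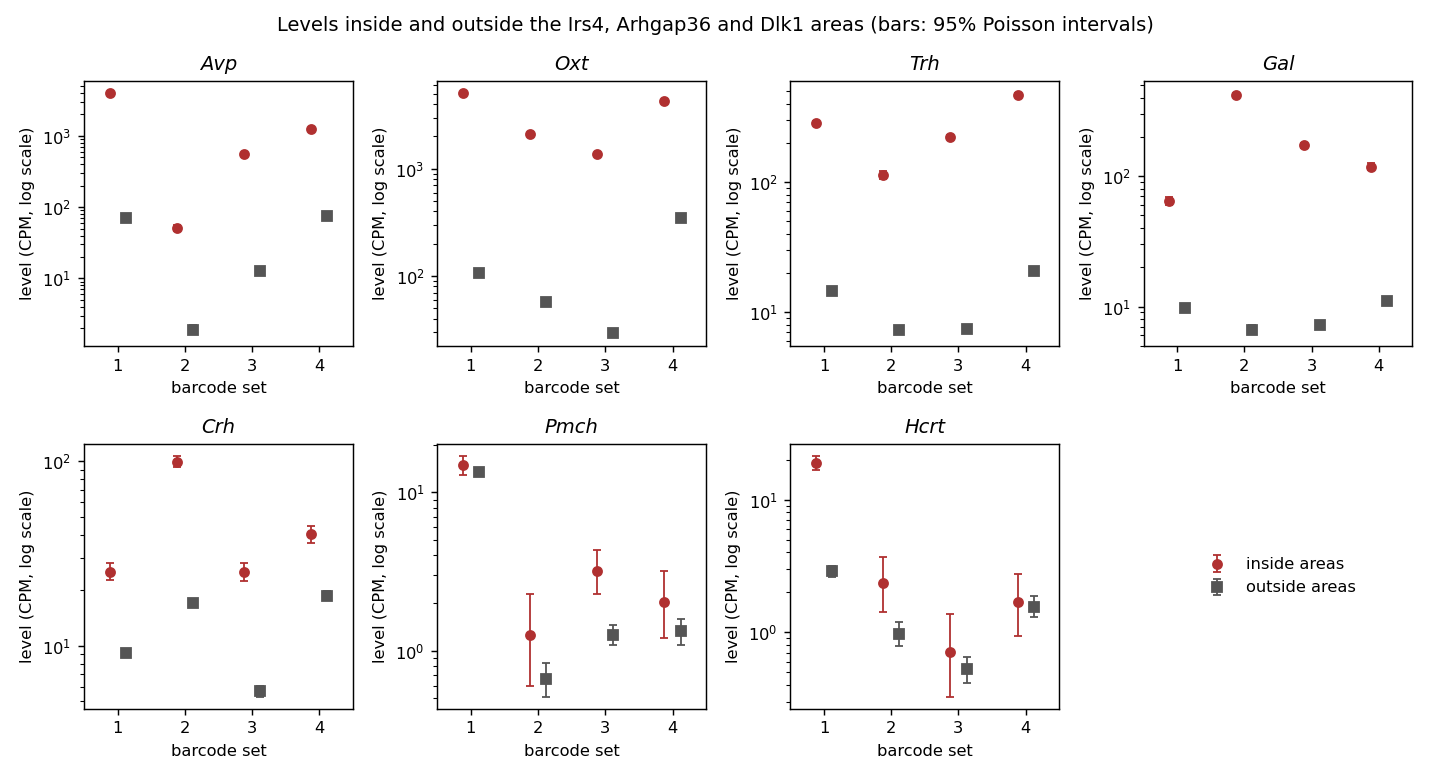
Level of each gene (CPM, log scale) inside (circles) and outside (squares) the hypothalamic areas in barcode sets 1 to 4, with exact 95% Poisson intervals that cover counting error only. Avp, Oxt, Trh and Gal lie far above their outside level in every set, from 6.66-fold for Gal in set 1 to 63.0-fold for Gal in set 2, whereas Pmch in set 1 is alike inside and outside.

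Avp and Oxt, the magnocellular peptide genes, were higher inside the areas in all 4 sets. Avp was at 3945 CPM inside and 70.1 CPM outside in set 1, a ratio of 56.3 (55.2 to 57.5). In set 2 it was at 51.3 and 1.92 CPM (26.7, 22.5 to 31.9), in set 3 at 548 and 12.6 CPM (43.5, 41.4 to 45.8) and in set 4 at 1233 and 76.0 CPM (16.2, 15.7 to 16.7). Inside the areas, Avp in set 1 was thus 76.9 times its level in set 2, the widest range of the 7 genes. Oxt was at 5029 and 107 CPM in set 1, a ratio of 47.0 (46.3 to 47.8), and at 2120.3 and 57.7 CPM in set 2 (36.7, 35.7 to 37.8). It was at 1368 and 29.6 CPM in set 3 (46.2, 44.7 to 47.7) and at 4296 and 349.7 CPM in set 4 (12.3, 12.1 to 12.5). Inside the areas the highest Oxt level was 3.68 times the lowest, so Oxt stayed high in set 2, where Avp was low.

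Trh and Gal were also higher inside the areas in all 4 sets. Trh was at 284, 113, 221 and 468 CPM inside and 14.4, 7.30, 7.35 and 20.7 CPM outside in sets 1 to 4. Its ratios were 19.7 (18.7 to 20.7), 15.5 (14 to 17.1), 30.1 (28.1 to 32.3) and 22.7 (21.4 to 24). Trh was lowest in set 2 and highest in set 4. Gal was at 64.6, 418, 172 and 118 CPM inside and 9.71, 6.64, 7.23 and 11 CPM outside, with ratios of 6.66 (6.12 to 7.23), 63.0 (58.0 to 68.5), 23.8 (22.1 to 25.6) and 10.7 (9.78 to 11.7). Its order was the reverse of that of Avp: Gal was highest in set 2 and lowest in set 1.

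Crh passed the call in every set with smaller ratios. It was at 25.2, 99.6, 25.1 and 40.2 CPM inside the areas of sets 1 to 4 and at 9.15, 17.1, 5.66 and 18.7 CPM outside. Its ratios were 2.75 (2.44 to 3.09), 5.84 (5.37 to 6.36), 4.45 (3.90 to 5.06) and 2.15 (1.91 to 2.41). Over 12 alternatives its call held in 7 of 12 for set 1, in 8 of 12 for set 4 and in all 12 for sets 2 and 3. The alternatives changed the clustering or the area rule, or kept the areas and left out the 10 richest spots. Of its counts, 19.0% to 31.6% lay in the areas.

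Pmch and Hcrt, the lateral hypothalamic genes, were found at more than a few counts per spot in set 1 alone. Hcrt was at 18.9 CPM inside the areas of set 1 and 2.89 CPM outside (6.55, 5.61 to 7.64). In sets 2, 3 and 4 it was at 2.37, 0.714 and 1.68 CPM inside, on 19, 9 and 15 counts. Outside it was at 0.974, 0.524 and 1.56 CPM. Of these sets, set 2 passed the call (2.43, 1.40 to 4.0), which held under 8 of the 12 alternatives. Pmch in set 1 was at 14.8 CPM inside and 13.4 CPM outside, a ratio of 1.10 (0.951 to 1.27). In sets 2, 3 and 4 it was at 1.25, 3.17 and 2.02 CPM inside, on 10, 40 and 18 counts, and 0.659, 1.26 and 1.32 CPM outside, and set 3 passed the call (2.52, 1.75 to 3.56) and did so under all 12 alternatives. Pmch missed the call in sets 2 and 4 but was called higher there under 7 and 4 of the 12. In set 1 it was called under 7, counting either direction, with log2 ratios from -2.48 to 6.04. Neither gene thus has a settled place against the areas.

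By this rule 6, 6, 6 and 5 of the 7 genes were higher inside the areas in sets 1 to 4, against the 4.51%, 6.41%, 5.52% and 4.73% of all genes given above. Pmch in set 2 and Hcrt in set 3 lie under the 1 CPM of that background. None of the 7 was lower. The count of set 1 depended on how spots were clustered: without centring genes within sets, its areas held 54 spots and 2 genes, Oxt and Gal, passed. There the log2 ratio of Avp was 0.34 and that of Hcrt reversed to -2.23.

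Spots with a count of a gene were also found where none was looked for. In the striatal marker clusters, 2.37% to 5.0% of spots had an Avp count and 2.07% to 7.57% an Oxt count, at a median of 21526 to 47417 counts per spot. Trh counts were in 11.6% to 14.5% of those spots. Inside the areas the shares were 19.2% to 80.4% for Avp, 56.9% to 94.4% for Oxt and 64.8% to 92.9% for Trh, at median depths of 30023 to 55283. With every spot thinned to 10000 counts, which left out 199 shallower spots, Oxt was found in 53.1%, 46.5%, 44.1% and 85.4% of area spots and in 5.72%, 3.19%, 3.49% and 11.8% of the spots outside. For Hcrt in sets 3 and 4 the shares inside the areas, 3.12% and 4.90%, were close to the 1.73% and 5.41% of the striatal marker clusters and are read as background.

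**Figure D2:**
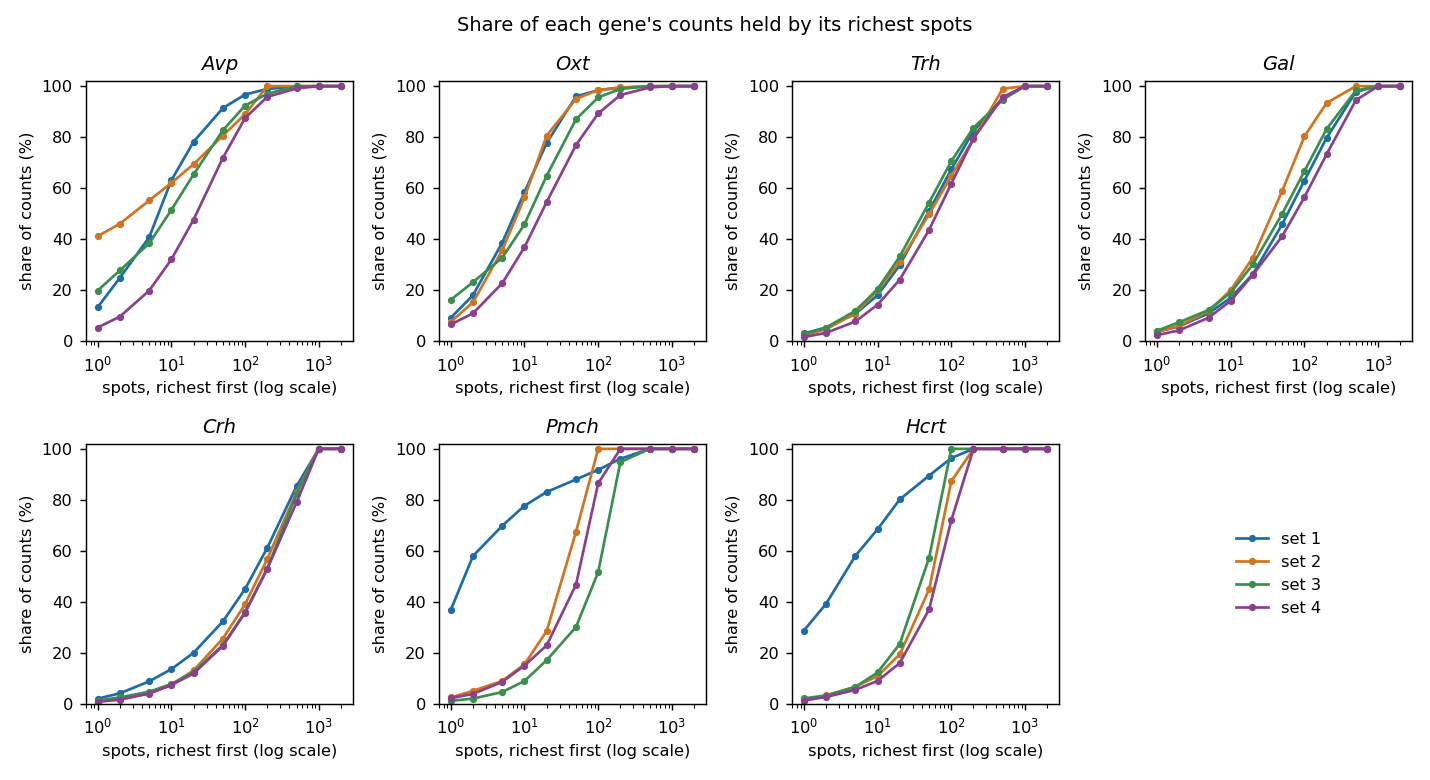
Cumulative share of each gene's counts (percent) against the number of spots, richest first (log scale), one line per barcode set. The Avp and Oxt lines rise within the first 10 spots, where 32.1% to 63.1% and 36.9% to 58.5% of counts lie, while those of Crh are flat there; the Pmch and Hcrt lines rise early in set 1 alone.

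Counts of Avp and Oxt were held by a handful of spots. The 10 richest spots of a set held 63.1%, 62.1%, 51.5% and 32.1% of all Avp counts in sets 1 to 4, and 50% of them lay in 7, 4, 10 and 22 spots. For Oxt the 10 richest held 58.5%, 56.4%, 45.9% and 36.9%, and 50% lay in 8, 9, 12 and 17 spots. The richest spot of all had 8826 counts of Avp, in set 1, which were 8.95% of everything counted in that spot. In set 4 Oxt reached 16.7% of the counts of a spot. In set 2, 1 spot held 250 of the 607 Avp counts (41.2%), and no other spot there had more than 30. CPM is a share of all counts, so such spots also lower the CPM of other genes in them.

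Trh, Gal and Crh were spread over more spots. The 10 richest spots held 14.4% to 20.5% of Trh counts, 15.9% to 20.1% of Gal counts and 7.45% to 13.7% of Crh counts. It took 42 to 64 spots to reach 50% of Trh, 38 to 76 for Gal and 126 to 182 for Crh. The highest count in a spot was 196 for Trh, 153 for Gal and 39 for Crh.

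Pmch in set 1 lay in few spots: 1 had 872 of its 2362 counts, a second 499, and the 10 richest 77.7%. Hcrt in set 1 had 209 of its 726 counts in 1 spot and 68.5% in 10. Both also had a long tail of single counts: the 50 richest spots held 88.0% of Pmch and 89.5% of Hcrt, against 96.0% of Oxt and 91.4% of Avp in the same set. In the other sets no spot had more than 3 counts of Pmch or more than 2 of Hcrt. Without the 10 richest spots, the level over set 1 fell from 13.5 to 3.02 CPM for Pmch and from 4.15 to 1.31 CPM for Hcrt.

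The level over a whole section was then compared between sets. Avp was at 376, 5.54, 53.4 and 189.7 CPM in sets 1 to 4, and the highest was 67.9 times the lowest. Oxt was at 495, 209, 132 and 738 CPM, 5.60 times. Trh was at 35.7, 15, 23.7 and 64.7 CPM (4.30 times), Gal at 14, 36.8, 19.8 and 21.5 CPM (2.62 times) and Crh at 10.4, 23.1, 7.14 and 20.9 CPM (3.23 times). Pmch was at 13.5, 0.702, 1.40 and 1.39 CPM (19.2 times) and Hcrt at 4.15, 1.08, 0.539 and 1.58 CPM (7.71 times). Gal in sets 3 and 4 and Pmch in sets 3 and 4 were neighbours in order whose log2 levels differed by 0.11 and 0.01. Under TMM and RLE scaling each gene had its highest and its lowest value in the same set as by CPM. Gal was higher in set 4 than in set 3 by CPM and lower under both scalings.

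Pairs of sets were counted as apart where log2(CPM + 1) differed by at least 1. Between sets 1 and 2 all 7 genes were apart. The background is 6.76% of 10144 genes that averaged 10 CPM or more. Sets 1 and 3 were apart in 4 genes (Avp, Oxt, Pmch and Hcrt) against 0.493% of all genes, and sets 2 and 4 in 3 (Avp, Oxt and Trh) against 0.779%. Sets 1 and 4 were apart in Pmch and Hcrt (7.23% of all genes), sets 2 and 3 in Avp and Crh (4.11%), and sets 3 and 4 in Avp, Oxt, Trh and Crh (5.61%). Pmch and Hcrt lie below the 10 CPM of that background. Inside the areas alone, all 7 were apart between sets 1 and 2 (6.66% of 10147 genes), 5 between sets 1 and 3 (0.926%), 3 between sets 1 and 4 (8.04%), 3 between sets 2 and 3 (5.14%), 5 between sets 2 and 4 (1.17%) and 3 between sets 3 and 4 (5.93%). Avp was among them in each of the 6 pairs, with log2 differences of 1.17 between sets 4 and 3 up to 6.24 between sets 1 and 2. Over whole sections these counts partly rested on few spots. Without the 10 richest spots of each gene, sets 1 and 3 were apart in 2 genes, Avp and Oxt, and sets 1 and 2 in 6, with Hcrt no longer apart (1.31 and 0.960 CPM). Sets 1 and 4 were then apart in other genes: Oxt (207 and 467 CPM) and Crh (9.04 and 19.4 CPM) in place of Pmch (3.02 and 1.18 CPM) and Hcrt (1.31 and 1.44 CPM). Under TMM and RLE scaling, sets 1 and 2 were apart in 6 genes, without Crh, and sets 1 and 4 in 3, with Avp added. The share of all genes apart was then 8.96% (TMM) and 8.52% (RLE) for sets 1 and 2. For sets 1 and 4 it was 10.7% and 9.80%. Fewer cells of a type and less RNA per cell cannot be told apart in such levels.

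**Figure D3:**
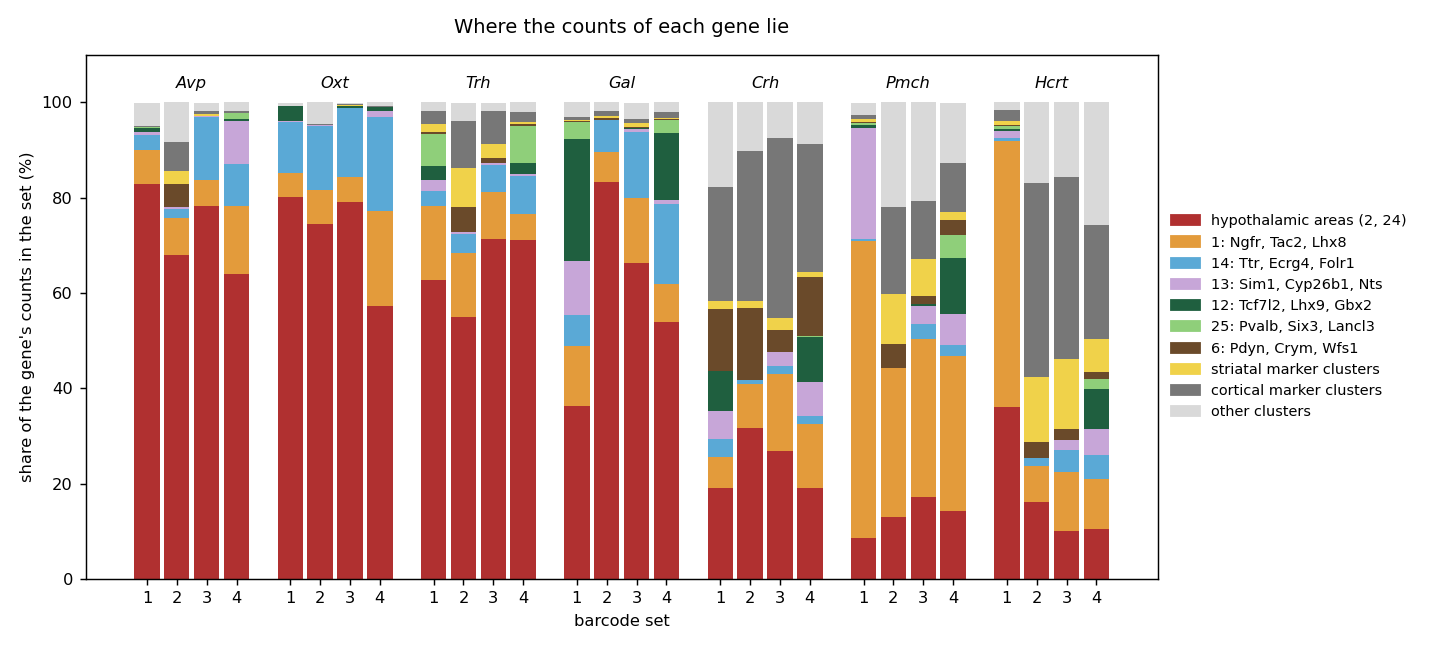
Share of each gene's counts (percent of its counts in that set) in the hypothalamic areas, in 6 further clusters named by number and leading genes, in clusters with striatal or cortical marker genes among their leading genes, and in the rest, for barcode sets 1 to 4. Areas hold 57.3% to 82.8% of Avp and Oxt counts, whereas Crh is spread over many clusters and Pmch in set 1 lies mostly in cluster 1.

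Outside the areas, counts of each gene fell in different clusters. The areas held 63.9% to 82.8% of Avp counts, 57.3% to 80.1% of Oxt counts and 55.0% to 71.3% of Trh counts over the sets. Cluster 14, led by the choroid plexus genes Ttr and Folr1 with Ecrg4, held 10.8% to 19.6% of Oxt counts. Its leading genes also include Ccdc153 and Tmem212, markers of the ventricle lining. It had Irs4, Arhgap36 and Dlk1 at 2.21, 1.91 and 2.35 times the level elsewhere, below the area rule. Its level of Oxt was above that of the areas in 2 sets: 2504 CPM (2417 to 2594) against 2120.3 (2089 to 2152) in set 2, and 4839.9 CPM (4757 to 4923) against 4296 (4253 to 4339.6) in set 4. In sets 1 and 3 it was below, at 1056 and 543 CPM. In set 2, 1 spot held 1316 of the 3097 Oxt counts in the 51 spots of cluster 14. In set 4, 1 spot held 2228 and another 1624 of the 13138 Oxt counts in its 119 spots. The levels of cluster 14 in these sets thus rest partly on single spots, which the intervals do not cover. Cluster 1, led by Ngfr, Tac2 and Lhx8, held 20% of Oxt counts in set 4 and 5.06% to 7.26% in the others.

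Trh outside the areas was spread over several clusters. In set 1 cluster 1 had it at 91.0 CPM on 964 counts, and cluster 25, led by Pvalb, Six3 and Lancl3 and present in sets 1 and 4, at 90.8 CPM on 413. In set 4 cluster 14 had Trh at 171 CPM on 463 counts and cluster 25 at 159.7 CPM on 446. Of the 95 spots of cluster 25 in set 4, 52 were rich in Trh, where rich means at least 3 counts and at least 100 CPM of a gene, and 26 were rich in Avp. Their levels of Avp, Oxt and Gal were 72.3, 22.6 and 19.0 CPM. Six3 and Pvalb are genes of the thalamic reticular nucleus among other places.

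Gal had 25.7% of its counts of set 1 and 14% of those of set 4 in cluster 12, led by Tcf7l2, Lhx9 and Gbx2, genes of the thalamus. Its level there, 48.2 CPM in set 1, was below the 64.6 CPM of the areas. Cluster 12 had 0 spots in set 2 and 2 in set 3. In set 2, 83.3% of Gal counts lay in the areas.

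Crh had most of its counts outside the areas. Clusters with a cortical marker among their leading genes held 23.8%, 31.3%, 37.7% and 26.9% of Crh counts in sets 1 to 4, at 6.35 to 17.2 CPM, and the areas 19.1%, 31.6%, 26.9% and 19.0%. For comparison, the same cortical clusters held 0.0518% to 6.10% of Avp counts. Cluster 23, led by Npnt, Tafa1 and Vip with all its 243 spots in set 1, had no listed cortical marker among its leading genes. It was thus left out of the cortical share of set 1, and held 213 of the 1820 Crh counts of that set. In cluster 6, led by Pdyn, Crym and Wfs1, Crh was at 31.1, 62.2, 8.27 and 114 CPM. This was above the areas in set 4 (40.2 CPM) and in set 1, where the intervals overlapped (27.3 to 35.3 against 22.6 to 28.0), and below them in sets 2 and 3. In set 3 cluster 1 was higher than cluster 6, at 19.7 CPM. Striatal marker clusters had Crh at 0.979 to 4.33 CPM.

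Pmch in set 1 had 62.2% of its counts in cluster 1 (139 CPM) and 23.3% in cluster 13 (67.3 CPM), led by Sim1, Cyp26b1 and Nts. The areas held 8.64%. Hcrt in set 1 had 55.9% in cluster 1 (38.3 CPM) and 36.0% in the areas (18.9 CPM). Both clusters have hypothalamic marker levels below the rule: Arhgap36 was 2.60 and 2.79 times the level elsewhere, and Irs4 1.76 and 1.35 times. How the 2 genes divide between areas and other spots therefore followed the definition: over the alternatives the log2 ratio of Pmch in set 1 ranged from -2.48 to 6.04.

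Spots rich in a gene but outside the areas still carried the area markers. In set 1, the 121 Avp-rich spots outside had a summed level of Irs4, Arhgap36 and Dlk1 of 293 CPM (278 to 307), against 26.1 CPM in other outside spots and 472 CPM in the areas. For Oxt in set 4, the 176 rich spots outside had 403 CPM, against 31.9 CPM in other outside spots. For Hcrt in set 1 these levels were 403 CPM in 10 spots and 34.2 CPM. For Crh they were 129, 156, 231 and 121 CPM in sets 1 to 4, against 34.1, 63.9, 32.3 and 48.7 CPM in other outside spots. For Gal they were 119, 465, 431 and 529 CPM, so in set 1 Gal lay near Crh.

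**Figure D4:**
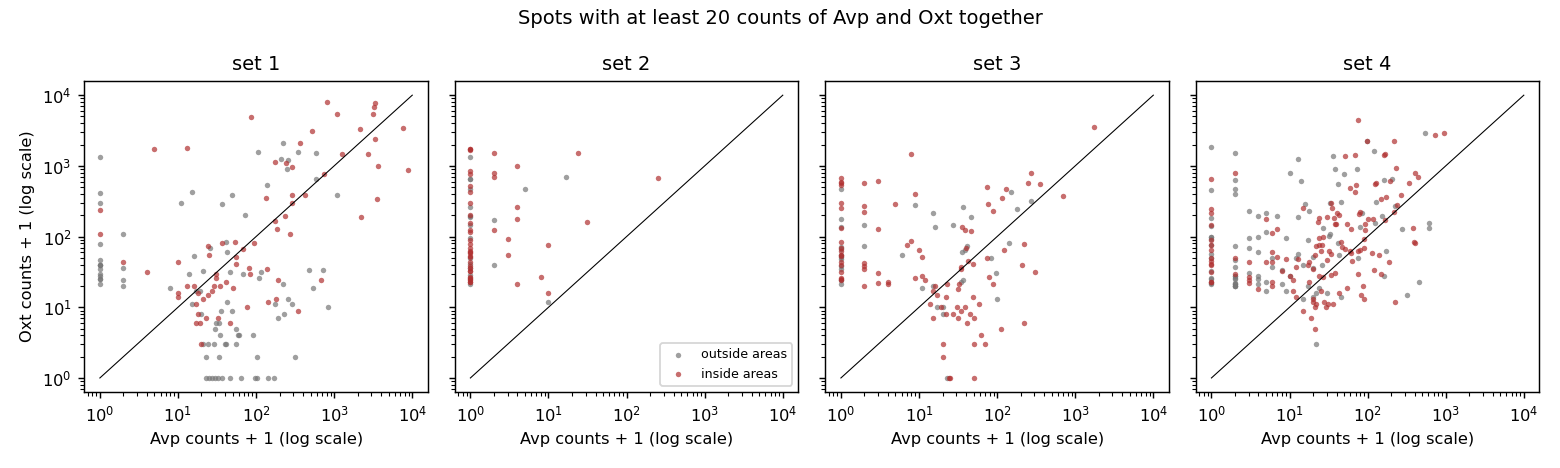
Counts of Oxt against counts of Avp (both plus 1, log scales) in spots with at least 20 counts of the pair, inside (red) and outside (grey) the areas, with the line of equal counts, for barcode sets 1 to 4. Spots of set 1 lie on both sides of the line, while in set 2 no spot lies below it and most sit at 0 or 1 count of Avp.

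Avp and Oxt were counted in proportions that differed by set. For each count of Avp, sets 1 to 4 had 1.32 (1.30 to 1.33), 37.7 (34.8 to 40.9), 2.47 (2.41 to 2.53) and 3.89 counts of Oxt (3.82 to 3.95). Probe efficiency differs between genes, so the ratio compares sets and does not weigh the peptides against each other. Among the 166, 66, 136 and 244 spots with at least 20 counts of the pair, the median share of Oxt was 42.1%, 100%, 73.5% and 81.6%. At least 90% was Oxt in 30, 59, 52 and 91 of them. At most 10% was Oxt in 46, 0, 12 and 4; the 0 of 66 spots in set 2 allows a share of up to 4.55%. Among these spots, set 1 thus had both extremes, and set 2 had the Oxt extreme but none of the Avp extreme. Below the cut of 20 counts, an area spot of set 2 had 16 Avp and 0 Oxt counts.

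Single spots show the same. In set 1 the richest Avp spot had 8826 Avp and 884 Oxt counts, and the richest Oxt spot 8016 Oxt and 802 Avp counts. In set 3 a single spot led both genes, with 1761 Avp and 3559 Oxt counts. In set 2 the 3 richest Oxt spots had 1756, 1738 and 1653 Oxt counts and 0 Avp counts each. In set 1 a spot with 167 Avp counts had 0 Oxt counts. Avp and Oxt have a nearly identical stretch that codes for their neurophysins, and where the probes lie is not given in the sources used here; these spots bound any reading of one gene by probes of the other.

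**Figure D5:**
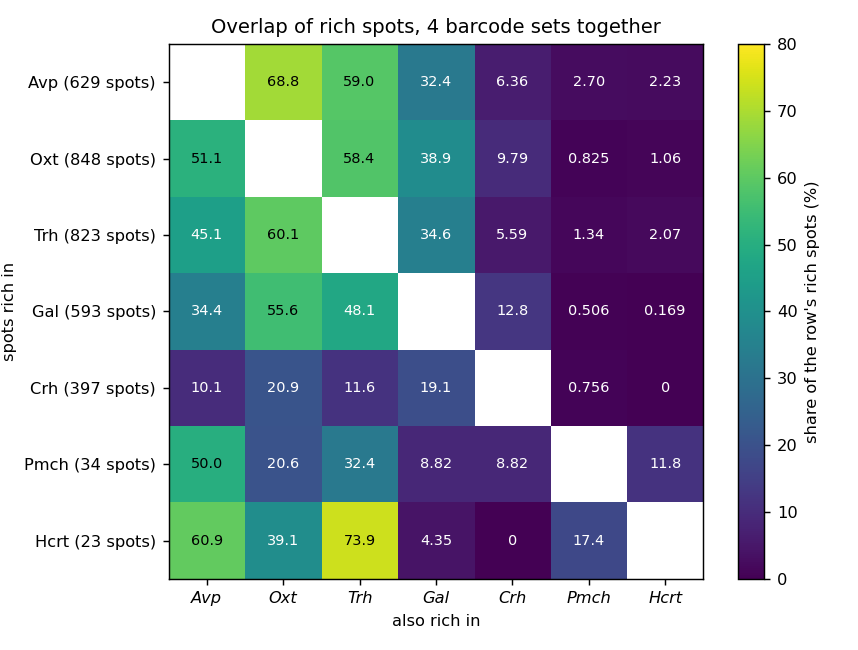
Percent of the spots rich in the row's gene (at least 3 counts and 100 CPM) that were also rich in the column's gene, over the 4 barcode sets together, with the number of rich spots in parentheses. Avp, Oxt, Trh and Gal overlap one another by 32.4% to 68.8%, while Crh overlaps them by at most 20.9% of its own spots.

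Rich spots were then compared for all 21 pairs of genes. There were 629 spots rich in Avp (213, 20, 140 and 256 in sets 1 to 4), 848 rich in Oxt (171, 120, 166 and 391) and 823 rich in Trh (208, 105, 172 and 338). Gal had 593 (95, 175, 181 and 142), Crh 397 (47, 165, 38 and 147), Pmch 34, of which 32 were in set 1, and Hcrt 23, all in set 1. The 0 Hcrt-rich spots of set 2 allow a share of up to 0.107% of its spots. In all, 1 gene was rich in 866 spots, 2 in 411, 3 in 322, 4 in 157 and 5 in 13.

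Of the Avp-rich spots, 433 (68.8%) were also rich in Oxt, which are 51.1% of the Oxt-rich spots. Over all spots, 6.73% were rich in Oxt and 4.99% in Avp. The shares per set were 58.7% and 73.1% in set 1, 60% and 10% in set 2, 62.1% and 52.4% in set 3, and 81.6% and 53.5% in set 4. Within the areas alone, 77.2%, 80%, 67.8% and 96.3% of Avp-rich spots were rich in Oxt, against 39.7%, 37.6%, 38.2% and 75.2% of all area spots. With spots thinned to 10000 counts, where 1 count is enough to reach 100 CPM, the overlap was 54.8% of Avp spots and 43.9% of Oxt spots.

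Trh was also often found with Oxt. Of the Trh-rich spots 60.1% were rich in Oxt and 45.1% in Avp, and 58.4% of Oxt-rich spots were rich in Trh. Within the areas of sets 1 to 4, 70.8%, 51.2%, 79.1% and 76.3% of Oxt-rich spots were rich in Trh. Of all area spots 54.9%, 29.6%, 41.0% and 64.0% were. Gal was rich with Oxt in 330 spots, 55.6% of its own and 38.9% of those of Oxt. In set 2, 73.3% of Oxt-rich spots were rich in Gal, against 22.2% in set 1, where Gal was lowest. Spots rich in Trh held from few to many Oxt counts. In set 1 the richest spot of Trh, with 196 counts, had 1770 Oxt counts, whereas in set 3 the richest spot of Trh, with 108 counts, had 10 Oxt and 0 Avp counts, and in set 4 that with 98 had 7 Oxt and 4 Avp counts.

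Crh-rich spots of the areas were set against all area spots of their set. In set 1 all 10 Crh-rich spots of the areas were rich in Avp, Oxt and Trh, and their levels were 18521 CPM of Avp, 29269 of Oxt and 698 of Trh. The 5 richest of them had 24 to 39 Crh counts with 1242 to 3593 Avp counts. Of all area spots of set 1, 41.1% were rich in Avp, 39.7% in Oxt and 54.9% in Trh. These 10 spots were deep, with a median of 115417 counts. In set 2, 76 area spots were Crh-rich, of which 2 were rich in Avp, 21 in Oxt, 7 in Trh and 43 in Gal. Of all area spots of set 2, 4.69% were rich in Avp, 37.6% in Oxt, 29.6% in Trh and 64.3% in Gal. In its Crh-rich area spots Oxt was at 1805 CPM and in the other area spots at 2275 CPM, and Gal at 207 against 522 CPM. In set 3, 0 of the 11 Crh-rich area spots were rich in Avp and 1 in Oxt, where 31.2% and 38.2% of all area spots were. In set 4 the numbers were 14 and 27 of 39, beside 46.9% and 75.2% of all area spots. The differences between the sets were not tested.

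Pmch and Hcrt had few rich spots in set 1, and both were also found with other genes of the 7. Of the 32 Pmch-rich and 23 Hcrt-rich spots, 4 were rich in both, which are 12.5% and 17.4%; of all spots of set 1, 1.05% were rich in Pmch and 0.753% in Hcrt. Of the Hcrt-rich spots 17 (73.9%) were rich in Trh, 14 (60.9%) in Avp and 0 in Crh, which allows up to 13%. Of all spots of set 1, 6.81% were rich in Trh and 6.97% in Avp. The Hcrt-rich spots had Trh at 874 CPM, against 31.4 CPM elsewhere in the set, and Cartpt at 265 against 56.4 CPM. The richest Hcrt spot had 209 Hcrt, 40 Trh and 1 Avp counts. Of the 32 Pmch-rich spots, 17 (53.1%) were rich in Avp, 11 in Trh and 7 in Oxt. Their Avp level was 1867 CPM, against 366 elsewhere, and that of Oxt 109 CPM, against 498. The richest Pmch spot had 872 Pmch, 172 Avp and 0 Hcrt counts.

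Likeness over spots was measured by Pearson's r of log2(CPM/100 + 1), averaged over the 4 sets, for 13808 genes. It is a description over the spots of 4 sections that share their libraries and depth. Avp was most like Oxt (0.62; 0.34 in set 2 and 0.77 in set 1), then Otp (0.55) and Trh (0.48). Oxt was most like Avp, then Otp and Trh (both 0.58), Gal (0.55) and AW551984 (0.52). Trh was most like Otp (0.65) and Oxt, followed by AW551984 (0.56), Gpx3 (0.54) and Calcr (0.53), and Gal was most like AW551984 (0.59), Gpx3 (0.58) and Gabrq (0.57). No gene exceeded 0.28 for Crh, 0.18 for Pmch or 0.12 for Hcrt, which is too weak to name a partner. In set 1 alone, which held nearly all rich spots of both, the highest r was 0.41 for Hcrt, with Trh, and 0.24 for Pmch, with Igsf1.

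Receptors of the 7 peptides were set against the areas in the same way. Of 17 receptors and binding or degrading proteins, 6, 5, 6 and 6 were higher inside in sets 1 to 4 and 2, 1, 1 and 2 lower, with median ratios of 1.24, 1.31, 1.77 and 1.56. Of all genes with at least 1 CPM, 4.51% to 6.41% were higher and 7.21% to 9.23% lower, so the numbers lower lie near that share. Trhr, the thyrotropin-releasing hormone receptor, was higher in every set, by 4.62, 6.26, 7.83 and 4.83 times. Galr1, a galanin receptor, was higher by 4.74, 3.04, 12.3 and 3.70 times, and Hcrtr1, an orexin receptor, by 2.34, 4.33, 5.30 and 3.26 times. Galr3 was higher in every set too, by 2.39 to 3.13 times, on as few as 18 counts inside. Hcrtr2 was higher in sets 1 and 2 (2.15 and 2.71 times) and at 1.56 and 1.72 times in sets 3 and 4. Crhr2 was higher in sets 1, 3 and 4 (4.57, 3.21 and 2.87 times), with 1.31 in set 2.

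The oxytocin receptor gene Oxtr was at 1.09, 1.42, 2.16 and 1.22 times and passed in set 3. Crhr1, the main receptor of Crh, went the other way, at 0.457, 0.525, 0.50 and 0.452 times, lower in sets 1, 3 and 4. Trhr2 was at 0.253, 0.279, 0.591 and 0.377 times, lower in sets 1, 2 and 4, and Mchr1, the receptor of the Pmch product, was at 0.514 to 0.972 times and passed in no set. The vasopressin receptor gene Avpr1a passed in set 4 alone, at 2.5 times on 12 counts inside. Avpr1b, Avpr2 and Galr2 had at most 6 counts inside the areas of a set, too few to read.

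Genes that process or pack peptides gave smaller ratios. Among 14 such genes, the number higher inside was 4, 2, 3 and 2 in sets 1 to 4, and 1 in each set was lower, with median ratios of 1.53, 1.26, 1.30 and 1.34. Beside the 4.51% to 6.41% of all genes higher and 7.21% to 9.23% lower, 1 lower gene of 14 is near the share of all genes. Scg2, a granin of dense-core vesicles, was higher in every set, by 3.23, 3.81, 5.0 and 3.39 times, as was Qpct, which forms the pyroglutamate end of Trh, by 2.94 to 3.88 times. Pam, which amidates peptide ends, was at 1.65 to 2.04 times and higher in set 1, Pcsk1n, an inhibitor of the convertase of Pcsk1, at 1.71 to 1.76 and Cadps2, a factor of vesicle release, at 1.45 to 1.96. The convertase gene Pcsk2 was the lower one in every set, at 0.325 to 0.499 times.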

How the data were processed

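The authors deposited raw counts of 19465 genes in 12602 spots as a single table. The assay was the second version of Visium CytAssist for fixed tissue, as the protocols in the labels say. Space Ranger and Seurat are named, with no version, in the submitters' processing notes. The genome build and probe set are not given in the sources used here. The 7 genes, the gene lists and the rule were chosen with earlier results of these data known. The labels tie no spot to a sample, so no genotype test was made.

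Spots of at least 500 counts were scaled to 10000, log-transformed and centred per gene within sets, on 2000 variable genes without the 7 genes and their lists. Clusters came from 30 principal components, 15 neighbours and Leiden at resolution 0.8 (scanpy 1.11.5, leidenalg 0.10.2). Levels are counts per 1000000 summed counts, with exact 95% Poisson, Clopper-Pearson or conditional binomial intervals (scipy 1.17.1), for counting error only. The share that a count of 0 allows is approximate, as 3 divided by the number of spots. It and the intervals of shares take spots as independent, although neighbouring spots of a section are not. Leading genes have the largest fold of CPM with 10 CPM added. For the scaling alternatives edgeR 4.0.16 gave TMM and RLE factors. The fold call, intervals and area rule were tested on simulated data.

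Named genes were the 7 genes, the 3 area markers, the 5 genes most like each over spots, every receptor, the 5 list genes of the largest lowest ratio with at least 20 counts inside, and 3 leading genes of clusters with at least 10% of a gene's counts. Nr5a1, Pcsk2, cluster 25, the clusters grouped by cortical or striatal markers, the markers of rich spots outside the areas, Cartpt in rich spots and the other peptides compared by set were chosen after their values were seen. Alternatives were other clusterings, area rules, scalings, rich-spot thresholds and thinning.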

Additional observations from a re-analysis of the deposited data

How the results depend on the processing

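No paired analysis was possible because no spot could be tied to a numbered replicate, and the replicate block that had been planned was not run. Of 122 main values under alternatives, 95 stayed within their limits and 27 moved. The number of area spots, 224, 213, 288 and 286 in sets 1 to 4, moved most: to 366, 434 and 430 in sets 1, 3 and 4 at resolution 0.4, to 372, 446 and 449 in the same sets with a minimum of 1 count per spot, and to 369 and 443 in sets 1 and 3 when clustered without set 4. A 2-fold rule gave 600, 625, 795 and 695 spots, and the summed markers above an Otsu threshold of 46.5 CPM gave 711, 738, 918 and 909, with 930 spots within 0.5 log2 of the threshold. All 1011 area spots lay among the 3276 chosen by that score. Without centring, sets 1 and 2 had 54 and 419 area spots, 2 genes instead of 6 were higher in set 1, and the log2 ratio of Hcrt there reversed from 2.71 to -2.23. For each of them the cause was not tested. Without the 10 richest spots, sets 1 and 3 were apart in 2 genes and sets 1 and 2 in 6, and the 2 genes apart between sets 1 and 4 became Oxt and Crh in place of Pmch and Hcrt. The overlap of Avp-rich spots with Oxt became 72.7% at 200 CPM and 54.8% thinned, and that of Oxt-rich spots with Avp 44.7% at 500 CPM and 43.9% thinned. Where the 50 richest spots were counted in place of 10, sets 2 to 4 had 4, 4 and 2 genes with at least 50% of their counts in them. For single genes, 242 values stayed, 253 moved and 1, Hcrt above, reversed. Avp, Oxt, Trh and Gal in sets 2 to 4 passed the call under all 12 alternatives, as did Oxt and Gal in set 1. The rule that needed all 3 markers is among the 12. It chose the same areas as the main rule, so it could not change a value. Pmch and Hcrt in sets 2 to 4 rest on 77 to 232 and 89 to 143 counts, which limits what can be read from them.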

Other observations

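Other peptide genes set the areas of the 4 sets apart. Of the 34 other peptide genes of the list found in the table, 10, 13, 13 and 10 were higher inside the areas in sets 1 to 4, and 4, 6, 6 and 5 lower. Of all genes, 4.51%, 6.41%, 5.52% and 4.73% were higher and 9.23%, 7.66%, 8.83% and 7.21% lower. Cartpt, the precursor of the CART peptides, was higher by 9.05, 6.10, 10.2 and 4.17 times, and Adcyap1, the precursor of PACAP, by 4.84, 3.69, 7.13 and 5.44 times. Ghrh, the growth hormone-releasing hormone gene of the arcuate nucleus, was higher by 6.38, 17.1, 5.54 and 8.87 times. Ucn3, a peptide of the Crh family, was at 56.2 CPM inside the areas of set 1 and at 2.62 to 18.7 CPM in those of the other sets. Gast was higher by 2.99 to 5.09 times, on as few as 21 counts inside.

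Pomc, of the arcuate nucleus and the pituitary, was at 23.9 CPM inside the areas of set 1 (24.3 times, 20.1 to 29.6) and at 0.714 to 6.05 CPM in those of the others. Nts, the neurotensin gene, was at 307 CPM in set 2 (16.8 times, 15.8 to 17.9) and at 12.5 to 27.1 CPM in the others. Tac2, the neurokinin B gene, had area levels of 57.5, 335, 311 and 164 CPM over sets 1 to 4. Penk, Npy, Cck and Vip, peptide genes of the striatum or cortical interneurons, were lower inside the areas in all 4 sets, at 0.0327 to 0.419 times. Other such genes of the list were not: Sst, Tac1 and Pdyn were lower in 1 set each. Over the sets Sst was at 0.317 to 1.14 times, Tac1 at 0.267 to 1.54 times and Pdyn at 0.287 to 0.917 times. Of 8 pituitary marker genes, Pomc included, 1, 1, 0 and 2 were higher inside the areas of sets 1 to 4 and none was lower. Those of set 4 were Gh, at 5.19 times (4.27 to 6.29, 168 counts inside), and Prl, at 2.23 times on 17 counts inside. In set 1 it was Pomc, and in set 2 Lhb, on 6 counts inside. A list of 8 genes is too short to set against the share of all genes.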
